A study of Homo sapiens with 6 samples.

Results

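The 8 genes described here, PI3, SLPI, WFDC2, LCN2, LTF, DEFB1, PIGR and AZGP1, are grouped as genes of secreted defense proteins of mucosal and glandular surfaces. They are 8 of 19775 genes with a named probe set on the arrays, and were taken with every probe set that the platform annotation gives to 1 of these symbols, 12 probe sets in all. PI3 and AZGP1 were selected on their log2 fold change between the 2 groups of these same arrays, so their values are a description and carry no test. MCF-10A is a line of human mammary epithelium that grows without limit but is not transformed. Both groups were infected with a retrovirus and selected, with pNG taken as the vector and puromycin as the drug. They were kept in the same MCF-10 growth medium and harvested as proliferating monolayers at 70% confluence. Control labels name pNG, while the methods also describe moving the tagged CRB3 constructs into the vector pLNCX2. They name puromycin for MCF-10A cells given a hairpin virus, and G418 beside it for CRB3-expressing cells given one. Vector and drug are therefore not settled for the cells of these arrays. The CRB3-expressing cells (3 arrays) carried the polarity protein Crb3, which the methods describe as human CRB3 with a myc tag at its amino terminus, and the vector control cells (3 arrays) carried pNG without it. The comparison asks which transcripts differ when this apical polarity protein is made in excess. No source used here says whether the cells were a clone, or whether each of the triplicates was infected separately, and p-values here refer to the spread between these samples alone.

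Secreted defense proteins act outside the cell at wet epithelial surfaces. Elafin, the product of PI3, and SLPI are small inhibitors built on the whey acidic protein (WAP) fold, a module held by disulfide bonds, and both block neutrophil elastase. LCN2 captures iron-carrying bacterial siderophores, LTF (lactoferrin) binds iron itself, DEFB1 is a cationic antimicrobial peptide, PIGR carries polymeric immunoglobulins across epithelia, and AZGP1 is a soluble lipid-binding glycoprotein with a fold like that of MHC class I molecules. Several of them, lactoferrin and the immunoglobulin receptor among them, are known from milk.

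The values are log2 values of the Robust Multichip Average (RMA) method, 1 for each probe set and array, as deposited by the authors. Array medians ran from 5.84 to 5.88, and within groups the arrays correlated across probe sets with a Pearson's r of 0.997 to 0.998. The overexpressed gene followed its labels. CRB3 read 7.90, 7.59 and 7.85 on the vector control arrays and at most 12.19, with a mean of 12.11 ± 0.10 (SD, n = 3), on the CRB3-expressing arrays, a difference of 4.33 (SE 0.095) with an adjusted p of 1.83e-07 from limma. Of 15 measured markers of mammary epithelium, 14 had a mean of 6 or more, led by SFN, KRT7 and KRT5 (means of 13.58 or more in both groups). At the thresholds given below, 4 were called higher with CRB3 and 0 lower, where 1.43% of all genes were called higher and 0.465% lower. The 4 were KRT15, KRT14, CDH1 and KRT8, by 1.08 to 1.91 on the log2 scale. At an adjusted p under 0.05 from limma alone, 7 were higher and 1 lower. Of all 19775 genes, 666 were higher and 351 lower at that threshold. The leukocyte genes PTPRC, CEACAM8, FCGR3B and JCHAIN lay between 3.09 and 4.18. Others were brighter. A mean of 6 or more was seen for 6 of 15 neutrophil and myeloid markers and 4 of 10 plasma cell and lymphocyte markers. Differences between groups were tested with limma over all 54613 probe sets and called at an adjusted p under 0.05 together with a change above 1.5-fold, the thresholds of the study's methods. A gene was represented by its brightest probe set, that with the highest mean over the 6 arrays.

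Elafin and SLPI were both higher in CRB3-expressing cells, and AZGP1 went from a dim to a moderate value. The other 5 genes were not called, LCN2 for the size of its fold change alone. At the thresholds above, 3 of the 8 genes were called higher and 0 lower, where 1.43% of all genes were called higher and 0.465% lower. Since PI3 and AZGP1 were chosen for their rise, nothing is read from that count. Among the 6 genes that were not, 1 (SLPI) was called. In these bulk samples a change in the share of cells that express a gene and a change in RNA per cell cannot be told apart.

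**Figure D1:**
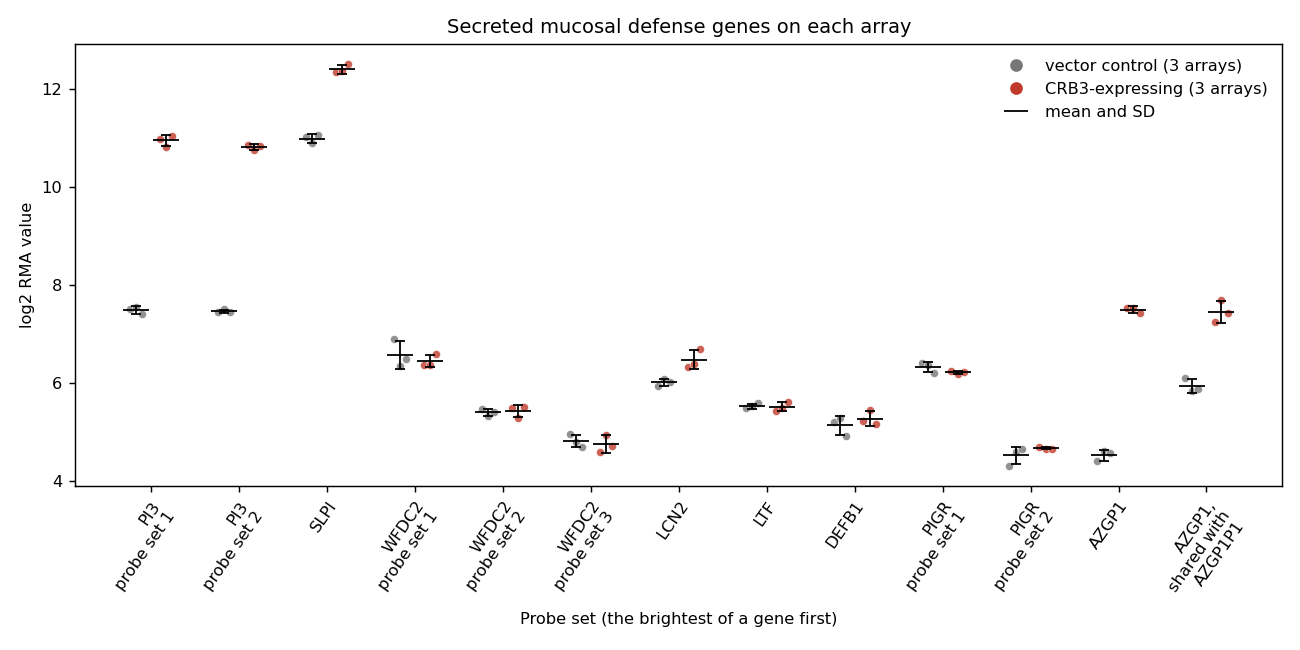
Log2 RMA value (y axis) of each member probe set (x axis), with grey points for the 3 vector control arrays and red points for the 3 CRB3-expressing arrays; black bars give mean and SD (n = 3). PI3, SLPI, LCN2 and AZGP1 have all red points above all grey points, while the red and grey points of WFDC2, LTF, DEFB1 and the brightest PIGR probe set overlap.

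PI3 encodes elafin, an inhibitor of neutrophil elastase and proteinase 3 that transglutaminases can cross-link into the epidermal barrier. In its brightest probe set the vector control arrays read 7.51, 7.55 and 7.40, and the CRB3-expressing arrays read 10.98, 10.82 and 11.05. Every CRB3-expressing array lay more than 3 log2 units above every vector control array, with a gap of 3.27 between the closest pair. The means were 10.95 ± 0.12 and 7.49 ± 0.077 (SD, n = 3), a difference of 3.46 on the log2 scale or 11.0-fold. The second PI3 probe set went from 7.47 ± 0.030 to 10.81 ± 0.054 (SD, n = 3), a difference of 3.34. The 2 probe sets thus gave nearly the same value. By the size of its rise PI3 ranked 5th of the 19775 genes.

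SLPI, the secretory leukocyte peptidase inhibitor, also blocks elastase and cathepsin G and is made by many secretory epithelia. Its single probe set was bright in both groups. It read 11.02, 10.90 and 11.05 on the vector control arrays, and 12.34, 12.36 and 12.51 on the CRB3-expressing arrays. The groups did not overlap, and the gap between the closest arrays, 1.28, was many times the SD within a group (0.082 in vector control cells and 0.092 in CRB3-expressing cells, n = 3). SLPI rose by 1.41 on the log2 scale (SE 0.074, 95% interval from 1.24 to 1.58, adjusted p = 1.34e-05 from limma), which is 2.66-fold (2.37 to 2.99). Its rise ranked 57th among all genes. SLPI was called higher under all 19 alternatives, with log2 fold changes between 1.36 and 1.45.

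WFDC2, another secreted WAP protein, was measured by 3 probe sets and none of them was called. Its brightest read 6.90, 6.35 and 6.49 in vector control cells and 6.38, 6.37 and 6.59 in CRB3-expressing cells. The groups overlapped, and vector control replicate 1 was the highest of the 6 arrays. The log2 fold change was -0.13 (95% interval from -0.44 to 0.17, adjusted p = 0.685 from limma), and without that array it was 0.024. The other 2 probe sets of WFDC2 lay between 4.60 and 5.52 on all arrays, with log2 fold changes of 0.024 and -0.066. The intervals of all 3 probe sets leave out a 1.5-fold change of the measured value in either direction. Values this dim may understate a change in transcript.

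**Figure D2:**
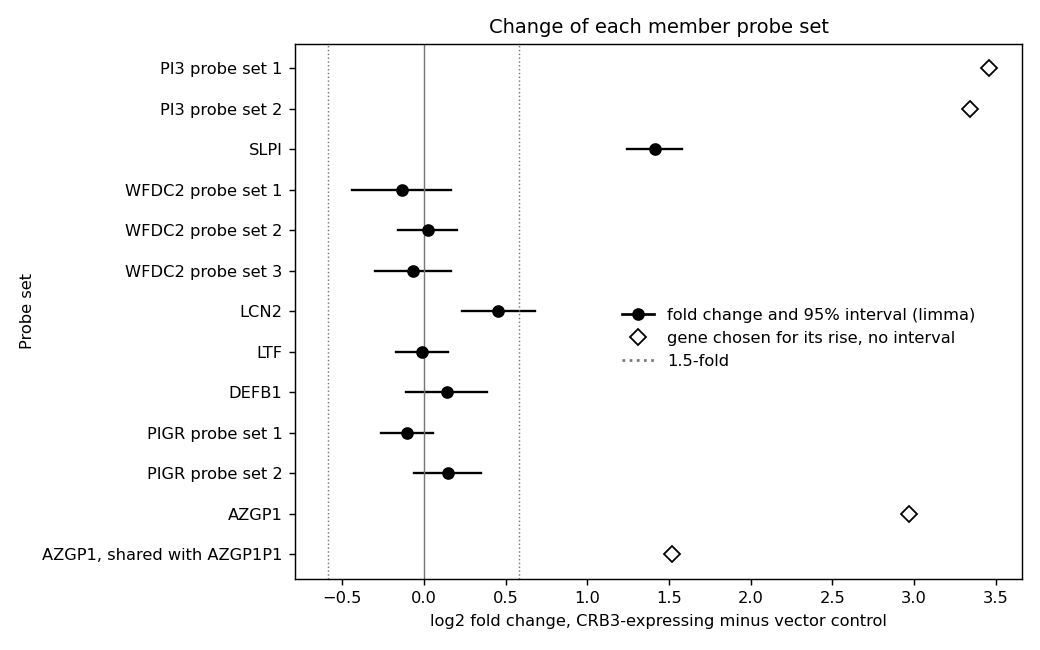
Difference of each member probe set (y axis) between CRB3-expressing and vector control cells on the log2 scale (x axis, above 0 where higher with CRB3); filled circles carry the 95% interval from limma, open diamonds are genes chosen for their rise and carry none, and dotted lines mark 1.5-fold. SLPI lies at 1.41 and LCN2 at 0.46, whose interval spans the dotted line, and the intervals of WFDC2, LTF, DEFB1 and PIGR include 0.

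LCN2 and LTF, the iron-handling proteins, were each compared between groups and not with each other. LCN2, the siderophore-binding lipocalin also known as NGAL, read 5.94, 6.09 and 6.02 in vector control cells and 6.33, 6.39 and 6.70 in CRB3-expressing cells. All 3 CRB3-expressing arrays lay above all 3 vector control arrays, as was so for 14.5% of all genes. The means were 6.47 ± 0.19 and 6.02 ± 0.076 (SD, n = 3). The log2 fold change of 0.46 (SE 0.099, 95% interval from 0.23 to 0.68) had an adjusted p = 0.0422 from limma, while its size, 1.37-fold (1.17 to 1.60), was under the fold threshold. LCN2 was therefore not called. Of all genes, 3.37% passed the p threshold alone in this direction. The adjusted p stayed under 0.05 in 1 of the 6 fits that left out an array, that without CRB3-expressing replicate 1 (adjusted p = 0.0470 from limma), and ranged up to 0.136, without vector control replicate 1.

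LTF, the milk and neutrophil protein lactoferrin, read 5.48, 5.53 and 5.59 in vector control cells and 5.44, 5.50 and 5.63 in CRB3-expressing cells. The ranges of the 2 groups were nearly the same. Its log2 fold change was -0.011 (95% interval from -0.17 to 0.15, adjusted p = 0.960 from limma), a sign that turned when single arrays were left out.

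DEFB1, the constitutive epithelial beta-defensin, read 5.20, 5.29 and 4.93 in vector control cells and 5.22, 5.45 and 5.17 in CRB3-expressing cells. The groups overlapped. The log2 fold change was 0.14 (95% interval from -0.11 to 0.39, adjusted p = 0.593 from limma). PIGR, the polymeric immunoglobulin receptor, whose cleaved ectodomain is secreted with immunoglobulin A, read 6.41, 6.36 and 6.21 against 6.25, 6.19 and 6.23 in its brightest probe set. One of the 3 vector control values fell within the range of the CRB3-expressing arrays. The log2 fold change was -0.10 (95% interval from -0.26 to 0.055, adjusted p = 0.526 from limma). The second PIGR probe set, at 4.53 in vector control cells, had one of 0.15, of opposite sign (adjusted p = 0.481 from limma). The intervals of LTF, DEFB1 and both PIGR probe sets lay within 1.5-fold, for measured values that may understate a change in transcript.

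RMA values carry no detection call, so a dim value does not show whether a transcript was made at all. As a rough scale, 33 genes restricted to other tissues, such as INS, ALB and HBB, had a median of 5.36 and a 90th percentile of 7.10 in their brightest probe sets. Probe sets differ in how they bind, so this range is a guide and not a cutoff for any 1 of them. LTF, DEFB1, PIGR, WFDC2 and LCN2 lay under 7.10 on every array, as did AZGP1 in vector control cells. PI3 lay above 7.10 on every array, at 7.40 or more, and SLPI far above it. The highest of the 33 genes, MBP, was at 9.23, which is above PI3 in vector control cells. Dim probe sets may understate a change.

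AZGP1, a secreted zinc-binding glycoprotein found in breast fluids and in apocrine secretions, read 4.40, 4.62 and 4.57 on the vector control arrays and 7.54, 7.54 and 7.43 on the CRB3-expressing arrays in the only probe set that is its own. The groups lay 2.81 apart at their closest. The means of 7.50 ± 0.065 and 4.53 ± 0.11 (SD, n = 3) differ by 2.97 on the log2 scale, or 7.83-fold, and rank 8th among all genes. The vector control value is not shown to be above background, so this fold is not a measured size of the change in transcript. A further probe set is shared between AZGP1 and its pseudogene AZGP1P1. It went from 5.94 ± 0.14 to 7.46 ± 0.22 (SD, n = 3), a difference of 1.52, with no overlap between groups. The probe set of AZGP1P1 alone stayed at 4.33 and 4.21 (log2 fold change -0.12, adjusted p = 0.391 from limma), with all 3 CRB3-expressing arrays slightly below the vector control arrays. The shared probe set cannot be divided between gene and pseudogene.

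PI3 and SLPI are neighbors on chromosome 20, in a cluster of WAP genes. In the gene order of the RefSeq assembly GRCh38.p14, only SEMG1 and SEMG2, which encode the gel proteins of semen, lie between them among protein-coding genes. The 5 protein-coding genes on each side of either, a stretch of 14 genes chosen after the values were seen, were all measured. WFDC12, next to PI3, read 6.64, 6.73 and 6.51 in vector control cells and 7.28, 7.60 and 7.41 in CRB3-expressing cells. It rose by 0.80 on the log2 scale (SE 0.095, adjusted p = 0.00173 from limma), with no overlap between groups, and was not called with an ordinary pooled variance (adjusted p = 0.0834 from limma's fit) or by limma's treat. WFDC5, the next gene on that side, went from 4.24 to 4.69 (log2 fold change 0.44, adjusted p = 0.0126 from limma), under the fold threshold. SEMG1 and SEMG2 lay at 3.58 to 3.72 in both groups, with log2 fold changes of -0.072 and -0.065. The 8 genes outside the span from WFDC5 to SLPI had log2 fold changes between -0.067 and 0.22, none of them called.

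**Figure D3:**
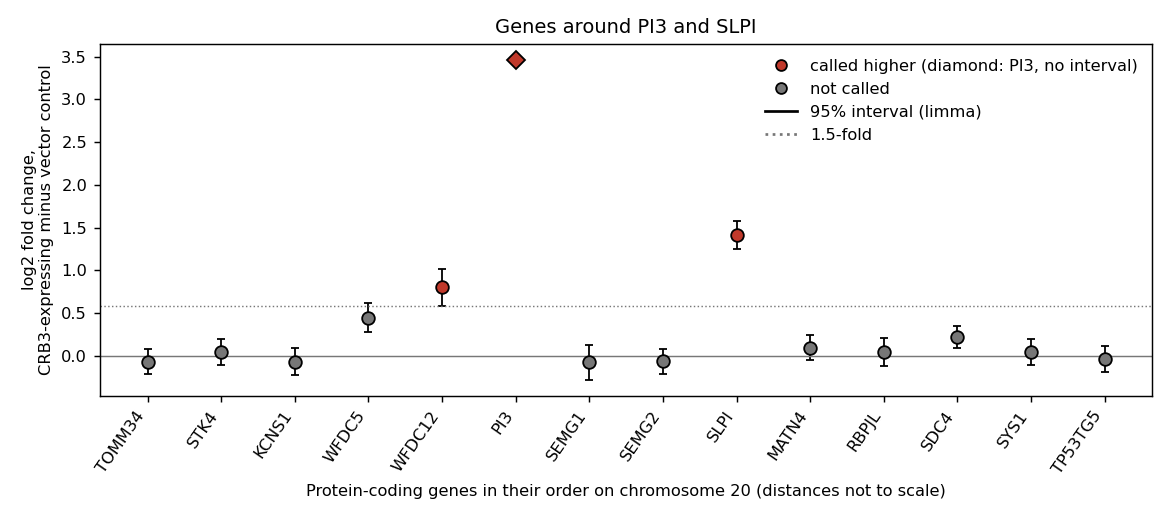
Difference between CRB3-expressing and vector control cells on the log2 scale (y axis, above 0 where higher with CRB3) of 14 protein-coding genes in their order on chromosome 20 (x axis, distances not to scale); red symbols were called higher, grey ones were not, bars are 95% intervals from limma, and PI3, drawn as a diamond, carries none. PI3 (3.46), SLPI (1.41) and WFDC12 (0.80) stand above the dotted 1.5-fold line, with SEMG1 and SEMG2 near 0 between PI3 and SLPI.

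The counts in related gene lists stand beside 1.43% of all genes called higher and 0.465% lower, and the lists are small. Of 16 other measured genes of the WAP family and its chromosome 20 cluster, 1 was higher, WFDC12, and 0 lower. The median log2 fold change of this list was 0.052, beside 0.0066 over all genes, and 13 of its 16 genes had a mean under 6. Of 15 other lipocalins and transferrins, relatives of LCN2 and LTF, 0 were called by limma in either direction. At limma's unadjusted p under 0.05, 2 were higher and 0 lower, beside 2050 higher and 1660 lower of all 19775 genes. The median of these 15 lipocalins and transferrins was 0.0067. The brightest of them were MELTF, a membrane-anchored transferrin (8.60 with CRB3 and 8.50 without, log2 fold change 0.10), and PTGDS (7.65 and 7.52, log2 fold change 0.13).

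Of 47 other measured antimicrobial and secretory proteins, 2 were higher and 0 lower, with a median of 0.045. DMBT1, named after its value was seen, passed the adjusted p and not the fold threshold. It went from 8.35 to 8.06 (log2 fold change -0.30, adjusted p = 0.0463 from limma). By the adjusted p alone, 351 of all 19775 genes were lower. CCL28, a chemokine of mucosal epithelia that attracts cells making immunoglobulin A, read 6.66, 6.82 and 6.99 in vector control cells and 8.17, 8.37 and 8.27 in CRB3-expressing cells. It rose by 1.45 on the log2 scale (SE 0.094, adjusted p = 5.31e-05 from limma). A dimmer CCL28 probe set rose by 0.66 and another, at 6.62 against 6.22, had a difference of 0.40 and was not called. CST6, the secreted cysteine protease inhibitor cystatin E/M, rose by 1.22 (SE 0.077, adjusted p = 4.48e-05 from limma), from 7.88 to 9.11, while its dimmer probe set (5.49 against 5.02) had a difference of 0.47 and was not called. CST3, the widely made cystatin C, was bright in both groups (11.38 and 11.50) with a log2 fold change of -0.12. CCL20, a chemokine of inflamed epithelia, had one of 0.12.

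Of 26 measured targets, receptors and binding partners of the 8 proteins, 3 were higher and 0 lower, where 1.43% of all genes were called higher, with a median of 0.065. KLK7, a chymotrypsin-like protease of the stratum corneum that SLPI can inhibit, read 6.76, 6.62 and 6.74 in vector control cells and 9.05, 8.85 and 9.11 in CRB3-expressing cells. It rose by 2.30 (SE 0.083, adjusted p = 1.41e-06 from limma), and its second probe set by 2.54. TGM1, the keratinocyte transglutaminase, rose by 1.13 (SE 0.075, adjusted p = 5.48e-05 from limma), from 8.16 to 9.29. TGM2, the tissue transglutaminase, rose by 0.74 in its brightest probe set (SE 0.14, adjusted p = 0.0210 from limma). The other 3 TGM2 probe sets had values from -0.085 to 0.30 and were not called, and TGM2 was called in 2 of the 6 fits that left out an array and not with an ordinary pooled variance (adjusted p = 0.219 from limma's fit). The neutrophil proteases that elafin and SLPI inhibit were among those not called, with ELANE at 4.59 over the 6 arrays.

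Among 33 measured transcription factors, cytokines and receptors known to induce defense proteins in epithelia, 1 was higher and 1 lower, with a median of -0.0042. ELF3, an epithelial ETS factor, read 6.53, 6.81 and 6.17 in vector control cells and 7.72, 7.59 and 7.83 in CRB3-expressing cells. It rose by 1.21 (SE 0.14, adjusted p = 0.00179 from limma), and its other 2 probe sets rose by 1.14 and 0.73. FOS, a subunit of AP-1, fell by 0.87 on the log2 scale (SE 0.089, adjusted p = 0.000726 from limma), from 7.67 to 6.80. With an ordinary pooled variance from limma's fit neither was called (adjusted p = 0.106 for ELF3 and 0.0602 for FOS), nor by limma's treat. A further 3 genes of this list, named after their values were seen, passed the adjusted p from limma and not the fold threshold. At the adjusted p alone, 2 of the 33 were higher and 3 lower, beside 666 and 351 of all 19775 genes. MYD88, an adaptor of Toll-like and interleukin-1 receptors, went from 9.83 to 10.33 (log2 fold change 0.50, adjusted p = 0.00190 from limma). IL1A, an alarm cytokine of epithelia, went from 10.51 to 9.94 (log2 fold change -0.57, adjusted p = 0.00132 from limma), and IL6R, the interleukin-6 receptor, from 8.25 to 7.85 (log2 fold change -0.40, adjusted p = 0.0205 from limma). The brightest genes of this list were HIF1A (12.82 in vector control and 12.67 in CRB3-expressing cells), CEBPB (12.87 and 12.60) and STAT3 (10.94 and 11.15), none of them called.

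**Figure D4:**
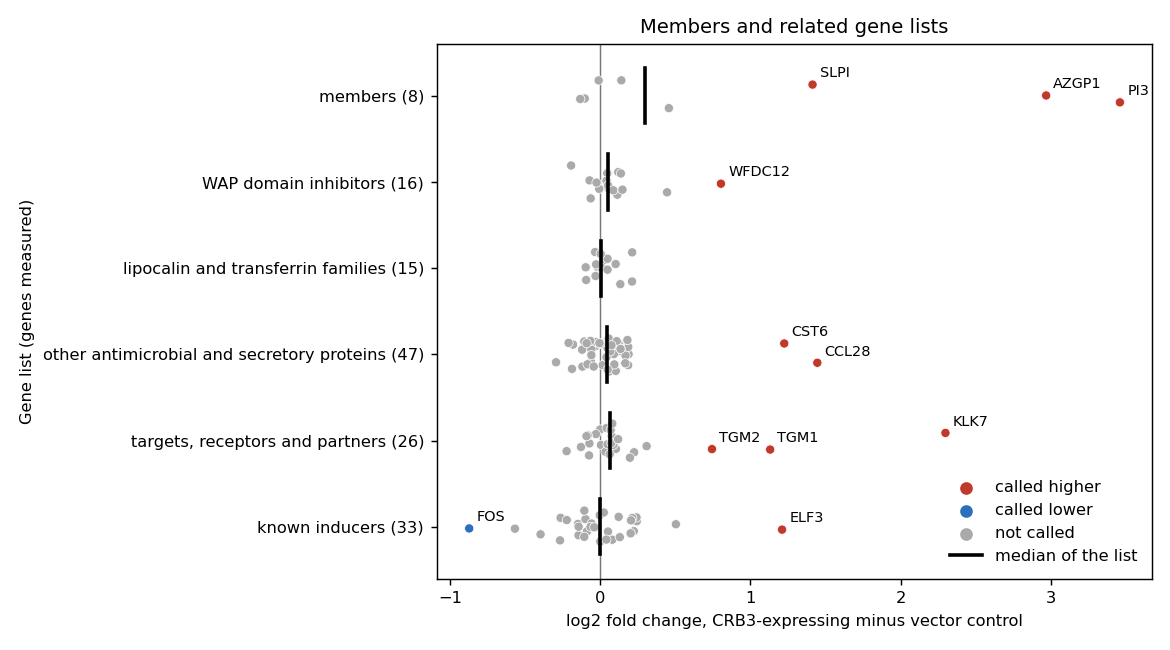
Difference between CRB3-expressing and vector control cells on the log2 scale (x axis, above 0 where higher with CRB3) of the 8 genes and of 5 related gene lists (y axis, number of genes measured in parentheses); genes called higher are red, genes called lower are blue, the rest are grey, and black bars mark list medians. Most points lie close to 0, with medians of the 5 related lists between -0.0042 and 0.065, and a few named genes reach far to the right.

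Markers of cells that release some of these proteins in tissue were examined beside the rises. Their counts stand beside 1.43% of all genes called higher and 0.465% lower. At limma's unadjusted p under 0.05, 2050 of all 19775 genes were higher and 1660 lower. Of 15 neutrophil and myeloid markers, 1 was higher, CSF1R (7.64 against 7.04, log2 fold change 0.60, adjusted p = 0.00516 from limma), and 0 lower. CSF1R lay at the edge of the fold threshold, and was called in 3 of the 6 fits that left out an array and not with an ordinary pooled variance (adjusted p = 0.102 from limma's fit). Their summed log2 level ranged from 80.95 to 81.68 in vector control cells and from 82.08 to 82.26 in CRB3-expressing cells, while the defining genes PTPRC, CEACAM8 and FCGR3B had means of 4.18, 3.46 and 3.92. CD14 was at 8.32 in vector control and 8.27 in CRB3-expressing cells. Of 10 plasma cell and lymphocyte markers none was called by limma, and 0 passed an unadjusted p under 0.05. Their sums ranged from 55.63 to 56.30 and from 54.99 to 56.22 in the same order, and the brightest were IGHM (7.29 over the 6 arrays) and CD79A (7.27). Of 10 fibroblast markers FAP was higher (1.31) and DCN lower (-0.76), with sums from 58.42 to 58.98 and from 58.97 to 59.96, while COL1A1 was at 8.01 and LUM, POSTN and COL3A1 had means between 3.43 and 4.48. Only 1 of the other 6 DCN probe sets was called, and DCN was not called as the mean over its probe sets (-0.27), without probe sets whose suffix marks probes shared between transcripts (-0.036) or with an ordinary pooled variance (adjusted p = 0.0939 from limma's fit). Of 8 endothelial markers none was called by limma, with 0 at an unadjusted p under 0.05, sums from 42.22 to 42.80 and from 42.29 to 42.86, CDH5 at 4.16, and PECAM1 (6.58) and VWF (6.14) the brightest. Among 13 luminal secretory markers, CD24 (2.45) and MUC1 (1.92) were higher and 0 lower, with sums from 81.52 to 82.34 in vector control and from 87.28 to 87.37 in CRB3-expressing cells. The milk protein genes CSN2, CSN3 and LALBA lay between 3.96 and 4.71. The part of CSF1R, FAP and the luminal markers in the rises of PI3, SLPI and AZGP1 was not tested.

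The genes whose 6 values, each set relative to its own vector control mean, came closest to those of PI3 were KLK10 (root mean square difference 0.11 log2 units over 6 arrays), CLIC3 (0.27) and ST6GALNAC5 (0.33). For AZGP1 they were ST6GALNAC5 (0.13), CLIC3 (0.21) and MACC1 (0.22). With 2 groups of 3, this measure is set mostly by the size of the rise.

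Sequence upstream of the genes is shown for 2 members whose values separated the groups, LCN2 and AZGP1, since known inducers of defense proteins act through such regions. Among the 8 genes, LCN2, AZGP1, WFDC2, PIGR and LTF matched an entry in the RefSeq promoter table (GRCh38.p14), and PI3 and SLPI did not. No sequence was taken for DEFB1, which does not show that the table lacks an entry for it. The 250 bases before the start were searched on both strands for AP-1 (TGANTCA), C/EBP (TTNNGNAA), STAT (TTCNNNGAA) and the NF-kB consensus. Capitals mark the matches, and the lines run in the direction of the gene.
LCN2 (chr9:128149203-128149452, plus strand): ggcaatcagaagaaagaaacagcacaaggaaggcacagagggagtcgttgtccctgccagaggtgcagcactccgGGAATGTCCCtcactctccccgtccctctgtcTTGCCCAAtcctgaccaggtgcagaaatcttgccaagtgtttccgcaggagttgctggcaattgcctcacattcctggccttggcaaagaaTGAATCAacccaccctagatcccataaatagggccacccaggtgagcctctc
AZGP1 (chr7:99976032-99976281, minus strand): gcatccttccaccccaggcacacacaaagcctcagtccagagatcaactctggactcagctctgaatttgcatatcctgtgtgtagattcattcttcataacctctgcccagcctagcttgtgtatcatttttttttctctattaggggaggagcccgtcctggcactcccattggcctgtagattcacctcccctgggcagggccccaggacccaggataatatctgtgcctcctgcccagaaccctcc

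The LCN2 window held, from its far end to the start, 1 match each to the NF-kB, C/EBP and AP-1 patterns, beginning 175, 143 and 52 bases before the start and not overlapping. The AZGP1 window held none of the 4 patterns, as did that of PIGR. The WFDC2 window held 1 C/EBP match, as did 2 of the 3 LTF windows, and the third LTF window held 1 STAT match. Of 35116 such windows in the table, 9.96% held the NF-kB pattern, 33.2% that of C/EBP, 6.57% that of AP-1 and 6.57% that of STAT. A match here is a run of letters and not a measured binding site.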

How the data were processed

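Total RNA of 6 MCF-10A samples, 3 CRB3-expressing and 3 vector control by their labels, was hybridized to Affymetrix Human Genome U133 Plus 2.0 arrays, 1 per sample. The authors background-corrected and normalized the arrays with RMA and deposited the log2 values, 1 for each probe set on each array; tool versions and the scan batches are not given in the sources used here. The log2 values were used as they stand; the number of arrays and dim probe sets limit the precision.

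Differences (CRB3-expressing minus vector control) were tested with limma 3.58.1 (lmFit and eBayes, R 4.3.3), Benjamini-Hochberg adjusted over 54613 probe sets, leaving out 62 array controls. Symbols came from the platform annotation, checked by Entrez identifier against RefSeq (GRCh38.p14): 41091 probe sets had 1 symbol, 1801 several and 11721 none, and 54 kept their symbol without an entry.

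The members, gene lists and markers were chosen with earlier results of these data known. Named were all members, called list genes, the brightest genes of lists and markers, and the 3 nearest genes in pattern; genes around PI3 and SLPI were added after their values were seen. Listed genes without a probe set of 1 symbol were not analysed here. The same steps were tested on simulated data. Alternatives were another variance model, normalization, filter, fold threshold or probe set rule, array weights, the replicate block and leaving out each array.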

Additional observations from a re-analysis of the deposited data

How the results depend on the processing

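SLPI was called higher under all 19 alternatives, with log2 fold changes from 1.36 to 1.45. The log2 fold changes of PI3 and AZGP1, which were chosen for their rise and are given without calls, ranged from 3.40 to 3.53 and from 2.91 to 3.01. LCN2 (0.46, adjusted p = 0.0422 from limma) was called only with no fold threshold, and its adjusted p ranged from 0.0181 to 1 over the alternatives. Near 0, signs turned for 3 members, none of them called: PIGR became 0.021 as the mean over its probe sets, WFDC2 became 0.024 without vector control replicate 1, and LTF became 0.016 without vector control replicate 3 and 0.031 without CRB3-expressing replicate 1. With single arrays left out, WFDC2 ranged from -0.25 to 0.024 and LTF from -0.064 to 0.031.

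The replicate block (LCN2 0.46 with adjusted p = 0.0489 from limma) changed no call named here. Deviations of same-numbered samples correlated weakly (r of -0.085, 0.064 and 0.029 for replicates 1, 2 and 3). Not every sample correlated best with its own number. With 3 arrays per group these values cannot show whether same-numbered samples were handled together. The ordinary pooled variance gave 0 WAP genes higher, 0 inducers higher and 0 inducers lower, and so did limma's treat. The 2-fold threshold gave 0 WAP genes higher and 0 inducers lower. No fold threshold gave 2 WAP genes higher, 1 antimicrobial gene lower, 2 inducers higher and 3 inducers lower. The number of inducers that were lower was 1 to 2 when single arrays were left out, with 2 without CRB3-expressing replicate 1 or 2. CSF1R was not called without vector control replicate 1 (0.57), vector control replicate 3 (0.55) or CRB3-expressing replicate 3 (0.55). TGM2 was not called without vector control replicate 1 (0.69) or 3 (0.72), or CRB3-expressing replicate 2 (0.58) or 3 (0.78). TGM2 (0.30) and DCN (-0.27) were under the fold threshold as means over probe sets, and DCN was at -0.036 without shared-suffix probe sets. For these alternatives the cause was not tested, apart from thresholds, which act by construction. Over all genes, 283 were higher and 92 lower, against 174 and 46 with an ordinary pooled variance and 666 and 351 with no fold threshold. Dim probe sets and 3 arrays per group limit what can be seen of LTF, DEFB1, PIGR and WFDC2.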
